A study of Homo sapiens with 2 samples.

Results

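Solute carriers are membrane proteins that move amino acids, sugars, ions, vitamins, lipids and metabolites across the plasma membrane or across the membranes of lysosomes, mitochondria and the Golgi. They are named by family, as SLC, a family number, the letter A and a member number. Most couple the movement of their substrate to an ion gradient or exchange one solute for another, and in cancer cells they set the supply of amino acids, glucose and nucleosides for growth.

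The genes described here were chosen by symbol and by level, that is by the array values themselves: they are those whose probe set carries a symbol of that form, or an SLCO symbol, and whose higher log2 value on the control or the miR-95 array was at least 7.5. The annotation used here gave such a symbol to 30 of 13864 named genes, and 17 of the 30 passed the level rule, among 7047 named genes that passed it in all. RefSeq lists 363 protein-coding genes with symbols of this form, and 18 of them were named among the probe sets used here. The other 12 matching symbols belong to noncoding RNAs and a pseudogene. The large plasma membrane families for glucose (SLC2), glutamate and neutral amino acids (SLC1), cystine and leucine (SLC7), lactate (SLC16) and nucleosides (SLC28 and SLC29) were not analysed here under their own symbols, so no nucleoside carrier is described and the amino acid, sugar and ion classes are small. Of the 17 genes, 14 encode carriers, 1 encodes a transcription factor named after a carrier gene, and 2 are long noncoding RNAs.

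The values come from PC3, an established human prostate cancer cell line. The control line stably carried a control microRNA and the second line stably overexpressed miR-95. Both were grown in DMEM with serum, and total RNA of each was hybridised to 1 Affymetrix array. The labels do not say whether either line is a clone or a pool. With 1 array in each group there is no replicate error, no test and no p-value, and each statement describes these 2 arrays. In lysates of whole cultures, fewer expressing cells and less RNA per cell cannot be told apart. The table holds log2 expression, and each array was centred on its median over named genes (7.46 control, 7.495 miR-95), which lowers every difference, miR-95 minus control, by 0.035. Pairs of array values below are as deposited, and differences and folds are after centring. Among the 68 genes passing the level rule with several probe sets, the differences of probe sets within a gene had a root-mean-square SD of 0.132, which serves as a guide to measurement disagreement and holds no variation between cultures. The robust SD of the difference over the 7047 genes was 0.148. All 4 measured epithelial markers of a list of 5 (KRT8, KRT18, KRT19 and EPCAM) passed the level rule, and none of 3 measured prostate luminal markers (KLK2, KLK3 and FOLH1) or of 4 measured markers of other cells (CD14, VWF, DCN and ALB) did.

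MicroRNAs lower the messages they pair with, chiefly through the seed, bases 2 to 8 of the mature strand. Both mature strands of the overexpressed microRNA are shown, from RefSeq on GRCh38.p14, since they define the agent that separates the cultures. The labels do not say which strand was raised. The 3p strand lies at chr4:8005312-8005333 and the 5p strand at chr4:8005347-8005367, both on the minus strand, and capitals mark the seed.
hsa-miR-95-3p: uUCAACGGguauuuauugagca
hsa-miR-95-5p: uCAAUAAAugucuguugaauu

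Among the 17 genes, 2 exceeded the control by 1.2-fold or more on the miR-95 array and 0 lay 1.2-fold or more below it, while 0 passed 1.5-fold in either direction. Over all 7047 genes passing the level rule, 5.51% were higher by 1.2-fold or more and 8.41% lower by as much. Because the level rule reads these same arrays, nothing is read from the counts of the 17 beyond their values. At 1.5-fold the shares were 0.397% and 0.866%. Without centring, 7.12% of all genes were higher by 1.2-fold or more and 6.06% lower, and 3 and 0 of the 17 were. The third of these, SLC25A21-AS1, passed the level rule through the miR-95 array alone. The median difference of the 17 was 0.035, and of the 14 carriers 0.025, against -0.035 over all genes. Positive differences were found in 11 of 17 genes and in 8 of 14 carriers, against 40.8% of all genes. Without centring 11 of the 17 were positive and 5 negative, against 49.5% of all genes positive.

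**Figure D1:**
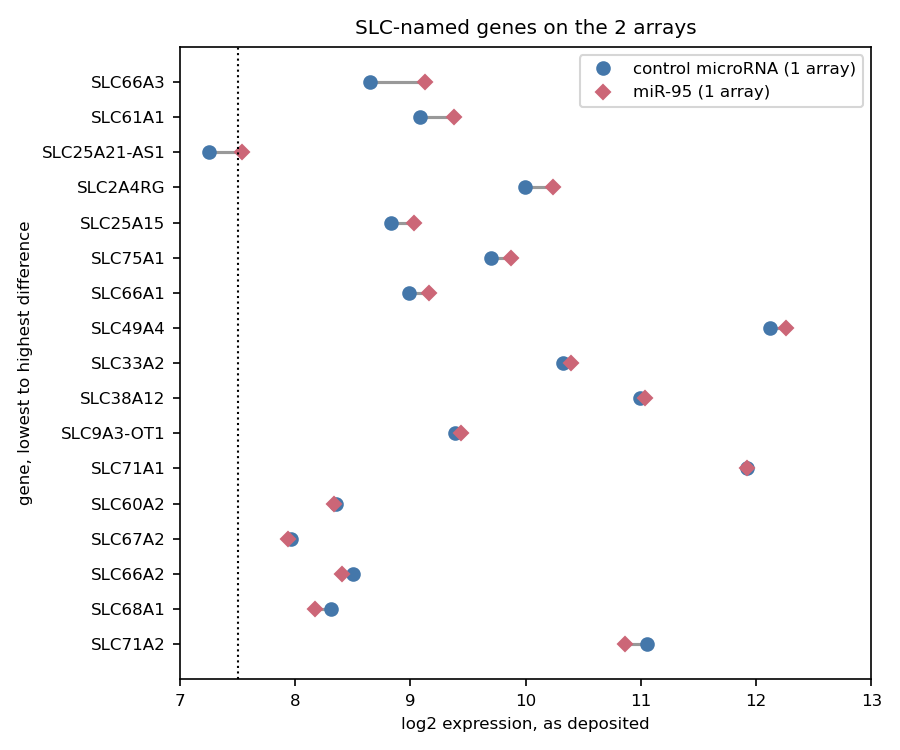
Log2 expression as deposited (horizontal axis) of the 17 SLC-named genes that passed the level rule, ordered by the difference; circles are the control array, diamonds the miR-95 array, and the dotted line is the level of 7.5. SLC66A3 has the widest gap (8.65 and 9.13), and SLC25A21-AS1 is the gene that crosses the line.

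The carrier with the largest difference was SLC66A3, formerly PQLC3, a member of the PQ-loop family whose substrate is not settled. It read 8.65 on the control array and 9.13 on the miR-95 array. The difference of 0.445 corresponds to 1.36-fold higher, several times the probe set SD of 0.132, and ranked 84th from the highest of 7047. The other PQ-loop genes did not share that size. SLC66A1, formerly PQLC2, exports cationic amino acids from lysosomes and read 8.99 and 9.16, a difference of 0.135 that is about as large as the probe set spread. SLC66A2, formerly PQLC1, read 8.5 and 8.41, a difference of -0.125. MPDU1, which RefSeq also lists as SLC66A5 and which the cell needs to use dolichol-linked mannose in glycan synthesis, read 7.51 and 7.84, a difference of 0.295. In this family SLC66A3 and MPDU1 were thus past 1.2-fold on the miR-95 array, and SLC66A1 and SLC66A2 lay within it on opposite sides of 0.

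SLC61A1, formerly MFSD5, a molybdate transporter and the inorganic ion carrier of the set, read 9.08 on the control array and 9.38 on the miR-95 array. Its difference of 0.265 lay just past the 1.2-fold limit of 0.263 and ranked 351st from the highest. It stayed past that limit under every centring tried, at 0.295 to 0.30 without median centring.

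At the other end was SLC71A2, formerly MFSD14B, a major facilitator protein without a settled substrate. It read 11.05 on the control array and 10.86 on the miR-95 array, a difference of -0.225 that ranked 777th from the lowest and stayed within 1.2-fold. Its paralog SLC71A1, formerly MFSD14A, read 11.92 on both arrays. After centring SLC71A1 was at -0.035, the median of all genes, and its sign followed the centring, with 0.00 as deposited, 0.001 after loess and 0.015 after quantile normalization. Before centring SLC71A2 differed by -0.19 and SLC71A1 by 0.00, a gap little larger than the probe set SD.

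Upstream sequences of these 4 genes are shown because they hold the highest pair, the lowest carrier and its paralog. Each run is the 250 bases before the RefSeq start of the gene, on GRCh38.p14 and on the plus strand, at chr2:11155217-11155466 (SLC66A3), chr12:53251845-53252094 (SLC61A1), chr1:100037845-100038094 (SLC71A1) and chr9:94374319-94374568 (SLC71A2). Capitals mark the GC box, GGGCGG or its reverse complement CCGCCC.
SLC66A3: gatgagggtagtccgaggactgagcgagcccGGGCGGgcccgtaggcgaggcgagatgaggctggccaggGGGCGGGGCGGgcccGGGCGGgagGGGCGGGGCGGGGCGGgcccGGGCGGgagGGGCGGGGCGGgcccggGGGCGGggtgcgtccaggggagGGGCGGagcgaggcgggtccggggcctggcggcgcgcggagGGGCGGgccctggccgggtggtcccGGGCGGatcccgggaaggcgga
SLC61A1: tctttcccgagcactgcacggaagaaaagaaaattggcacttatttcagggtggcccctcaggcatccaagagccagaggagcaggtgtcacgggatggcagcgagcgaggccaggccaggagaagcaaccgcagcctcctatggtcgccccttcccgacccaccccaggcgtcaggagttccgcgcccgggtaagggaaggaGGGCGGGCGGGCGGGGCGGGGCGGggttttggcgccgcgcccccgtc
SLC71A1: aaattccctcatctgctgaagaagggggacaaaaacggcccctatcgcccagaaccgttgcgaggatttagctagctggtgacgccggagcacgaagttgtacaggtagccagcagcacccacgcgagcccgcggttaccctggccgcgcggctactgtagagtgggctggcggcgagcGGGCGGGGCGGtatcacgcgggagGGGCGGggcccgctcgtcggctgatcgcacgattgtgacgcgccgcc
SLC71A2: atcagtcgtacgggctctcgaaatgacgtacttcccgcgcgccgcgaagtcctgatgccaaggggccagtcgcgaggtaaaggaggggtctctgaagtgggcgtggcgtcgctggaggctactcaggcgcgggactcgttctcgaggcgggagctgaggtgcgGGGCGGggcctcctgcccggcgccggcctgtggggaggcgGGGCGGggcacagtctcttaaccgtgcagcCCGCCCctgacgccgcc

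The SLC66A3 window is a run of repeated GC boxes, with 14 matches counting overlaps, and 5 of 8281 upstream windows of genes passing the level rule (0.0604%) held at least as many. SLC61A1 held 5 matches, and SLC71A1 and SLC71A2 held 3 each. RefSeq windows were at hand for 15 of the 17 genes, and 13 of these held a GC box, against 66.5% of the 8281 windows. The units differ: a gene was counted if any of its windows held a match, while the percentages are of windows, 8281 for 5820 genes. SLC75A1 has a window with a GC box and another without. CCAAT, searched on both strands, was found in 4 of 15 genes (33.9% of windows), and the E-box CACGTG in 1 of 15, SLC60A2 (8.51% of windows). The TATA box TATAAA was found in 0 of 15 (5.30% of windows). The windows of the set were rich in G and C, with a median of 71.6% against 65.2%. Of the 15 genes 4 lay below that comparison median, the lowest being SLC25A21-AS1 at 44%. A match is only a stretch of letters and does not show that a factor binds there.

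Amino acid carriers differed little. Besides SLC66A1, the class held SLC38A12, formerly TMEM104, which is named into the family of sodium-coupled neutral amino acid transporters. It read 10.99 and 11.04, a difference of 0.015. The mitochondrial ornithine carrier SLC25A15, which links the cytosolic and mitochondrial steps of the urea cycle, read 8.83 on the control array and 9.03 on the miR-95 array. Its difference of 0.165 was the largest positive one within the 1.2-fold limit among the SLC-named carriers of the set. The closely related ornithine carrier SLC25A2 read 5.61 and 5.74, below the level rule. In the sugar class, SLC60A2, formerly MFSD4B or NaGLT1 and described as a sodium-dependent glucose transporter, read 8.35 and 8.34, a difference of -0.045. Its relative SLC60A1 lay below the level rule at 6.59 and 6.82.

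Carriers for vitamins, lipids and cofactors differed little. SLC49A4, formerly DIRC2, a lysosomal membrane protein, read 12.12 and 12.26, a difference of 0.105. SLC33A2, formerly MFSD3, a relative of the acetyl-CoA transporter, read 10.32 and 10.39, a difference of 0.035. SLC75A1, formerly MFSD10 or TETRAN and placed here among organic ion carriers, read 9.70 and 9.87, a difference of 0.135. The remaining carriers are major facilitator proteins without an assigned substrate. SLC68A1, formerly TMEM180, read 8.31 and 8.17, a difference of -0.175, and SLC67A2, formerly MFSD9, read 7.96 and 7.94, a difference of -0.055. Of the 6 carriers without an assigned substrate 5 had negative differences, against 59.2% of all genes, and SLC66A3 was the positive one. SLC71A1, 1 of the 5, was negative only after median centring. The share of all genes with a positive difference also depends on it, at 49.5% as deposited. Of the 8 carriers with a substrate class 7 were positive, against 40.8% of all genes. Among the 28 genes with an SLC synonym described below, most of them with a substrate class, 10 were positive and 18 negative. The classes were assigned with the symbols and values in view, so the contrast between the 6 and the 8 is a description only.

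**Figure D2:**
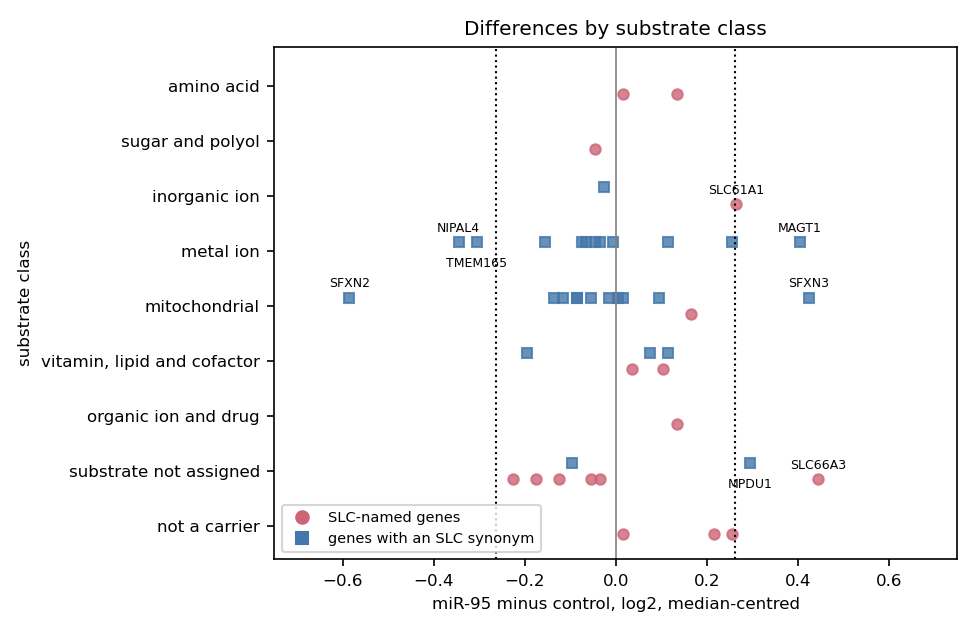
Median-centred differences (miR-95 minus control, log2; horizontal axis) by substrate class for the 17 SLC-named genes (circles) and the 28 genes with an SLC synonym (squares), with dotted lines at 1.2-fold either way. Most points lie between the lines, and SFXN2 (-0.585), SLC66A3 (0.445) and SFXN3 (0.425) lie farthest out.

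The 3 genes of the set that are not carriers had positive differences. Over all 13 SLC-named genes that are not carriers, without the level rule, the median difference was 0.015. SLC2A4RG, a transcription factor named as a regulator of the insulin-responsive glucose transporter gene SLC2A4, read 9.99 on the control array and 10.24 on the miR-95 array, a difference of 0.215 that reached 1.2-fold after quantile normalization (0.265). The antisense RNA SLC25A21-AS1 read 7.25 and 7.54, a difference of 0.255. It passed the level rule through the miR-95 array alone, so a positive difference was built into its place in the set. It reached 1.2-fold with the values as deposited (0.29) and after loess (0.264), and lay just short of it after quantile normalization (0.2625). SLC9A3-OT1, a noncoding transcript named after the sodium-proton exchanger gene, read 9.39 and 9.44, a difference of 0.015.

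Of the 13 SLC-named genes below the level rule, 10 are noncoding transcripts or a pseudogene and 3 are carriers (SLC25A2, SLC49A3 and SLC60A1). Their differences ran from -0.325 for SLC39A12-AS1 (4.69 and 4.40) to 0.325 for the pseudogene SLC25A51P4 (4.45 and 4.81). The genes just inside the level rule, by their higher value, were SLC25A21-AS1 (7.54), SLC67A2 (7.96), SLC68A1 (8.31) and SLC60A2 (8.35). Those just outside were SLC25A25-AS1 (7.40), SLC49A3 (6.90), SLC60A1 (6.82) and SLC2A1-DT (6.77).

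**Figure D3:**
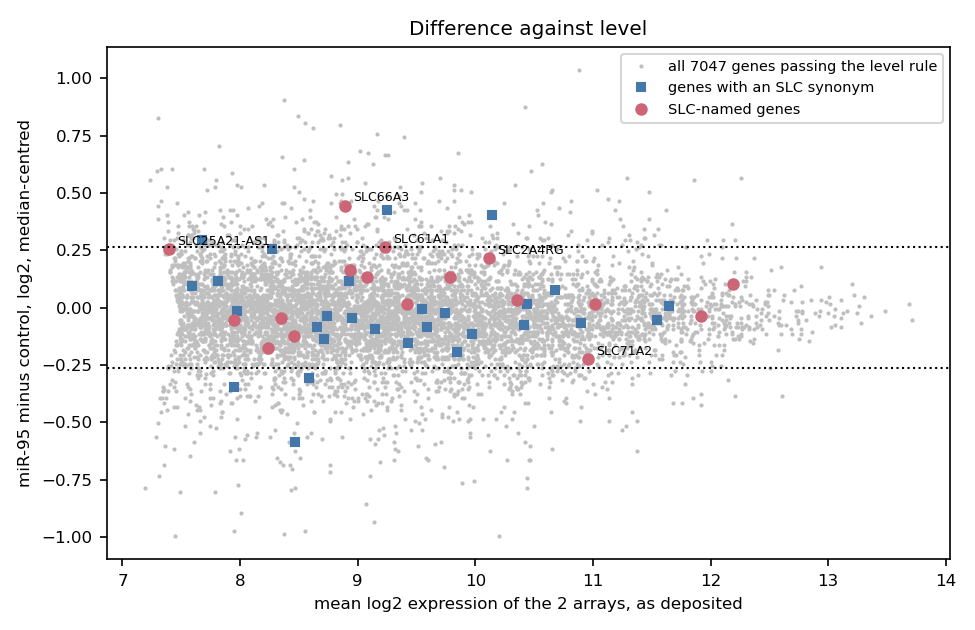
Median-centred difference (log2, vertical axis) against the mean log2 level of the arrays (horizontal axis) for all 7047 genes passing the level rule (grey), the 17 SLC-named genes (circles) and the 28 genes with an SLC synonym (squares); dotted lines mark 1.2-fold. The SLC-named genes lie within the cloud of all genes at their level, with SLC66A3 (0.445) near its upper edge.

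Many carriers are better known under other symbols. RefSeq gives an SLC synonym to 41 further measured genes, of which 28 passed the level rule, and they widen the mitochondrial and metal ion classes. These 28 were collected after the values were seen. Of them, 3 were higher by 1.2-fold or more and 3 lower by as much, against 5.51% and 8.41% of all genes. Their median was -0.04, close to that of all genes. As deposited, after loess and after quantile normalization NIPAL2 joined them, giving 4 higher and 3 lower. The shares of all genes as deposited were 7.12% and 6.06%. Together with the 14 SLC-named carriers, 5 of 42 were higher and 3 of 42 lower at that limit after median centring. This again stands against 5.51% and 8.41% of all genes, and the median was -0.03.

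The mitochondrial class then held 12 genes with a median of -0.035. The sideroflexins, a family of inner membrane carriers in which SFXN1 brings serine into mitochondria, spread most. SFXN2 read 8.74 on the control array and 8.19 on the miR-95 array, a difference of -0.585 at the 1.5-fold limit, and ranked 56th from the lowest. With the values as deposited it was at -0.55, inside that limit. SFXN3 read 9.02 and 9.48, a difference of 0.425 or 1.34-fold higher. SFXN1 (7.53 and 7.66) and SFXN4 (9.61 and 9.56) differed by 0.095 and -0.085. SFXN5 read 6.60 and 6.96, below the level rule. Members of this family thus lay on both sides of 0, with SFXN2 and SFXN3 the extremes of the class. The pyruvate carrier subunits MPC1 (8.76 and 8.66) and MPC2 (10.41 and 10.46) differed by -0.135 and 0.015. MTCH1 and MTCH2, outer membrane relatives of the SLC25 carriers, differed by -0.055 and 0.005, and the ion exchanger LETM1 of the inner membrane by -0.085.

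Metal ion carriers numbered 11, with a median of -0.045 against -0.035 over all genes. Of the 11, 8 (72.7%) had negative differences, against 59.2% of all genes. As deposited CNNM3 was at 0.0 and TUSC3 at 0.03, so the negative signs of these genes came from the centring. The comparison moved too: 40.8% of all genes were positive after median centring and 49.5% as deposited. MAGT1, a subunit of the oligosaccharyltransferase complex also linked with magnesium uptake, read 9.92 on the control array and 10.36 on the miR-95 array. Its difference of 0.405 made it 1.32-fold higher, while its paralog TUSC3 (9.53 and 9.56) was at -0.005. TMEM165, which serves manganese balance in the Golgi, read 8.72 and 8.45, a difference of -0.305. The NIPA and CNNM families, linked with magnesium transport, contributed 8 of the 11. Of these NIPAL4 (8.10 and 7.79) was past 1.2-fold at -0.345, and the other 7 ran from -0.155 for NIPA1 to 0.255 for NIPAL2, which was past 1.2-fold as deposited (0.29). NIPAL1 had the largest difference of any gene with an SLC name or synonym, -0.895, but read 7.27 and 6.41 and so lay below the level rule.

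Among the other carriers with a synonym, XPR1, the phosphate exporter, read 9.74 and 9.75, a difference of -0.025. FLVCR1, a transporter of choline and heme, differed by -0.195 (9.92 and 9.76). MFSD2A, which takes up lysophosphatidylcholine, and SPNS1, a lysosomal exporter of lysophospholipids, differed by 0.115 and 0.075. MFSD8, the lysosomal protein mutated in a form of neuronal ceroid lipofuscinosis, differed by -0.095. None of these reached 1.2-fold. Of the genes with a letter other than A in the SLC symbol, SLC35F6 (10.74 and 10.58), SLC35D4 (9.91 and 9.81) and SLC9D1 (9.19 and 9.25) passed the level rule, with differences of -0.195, -0.135 and 0.025.

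Genes that work beside the carriers were listed by function. Of 102 listed, 59 were measured and 50 passed the level rule, and 4 of these were higher by 1.2-fold or more and 6 lower, with a median of -0.02, against 5.51% and 8.41% of all genes. The balance turned with the centring, as it did over all genes. As deposited, and likewise after loess or quantile normalization, 5 were higher and 4 lower. The shares of all genes were then 7.12% and 6.06% as deposited, 7.0% and 6.34% after loess, and 7.04% and 6.23% after quantile normalization. FXYD5, a subunit of the sodium pump, was added (0.27 as deposited), and MCU and ACSL4 dropped. Carriers with an SLC synonym account for 19 of the 50, and 4 of the 10 past the limit (SFXN2, TMEM165, MAGT1 and SFXN3) are described above. The largest difference was that of CLTRN (collectrin), a partner that brings amino acid carriers of the SLC6 family to the cell surface. It read 8.44 on the control array and 7.58 on the miR-95 array, and its difference of -0.895 ranked 7th from the lowest of 7047. Collectrin was the only one of 5 passing carrier partners past 1.5-fold. NPTN, neuroplastin, a chaperone of monocarboxylate carriers and calcium pumps, read 10.27 and 10.61, a difference of 0.305. BSG, basigin, the main chaperone of the lactate carriers, read 11.98 and 12.02, a difference of 0.005. Its relative EMB, embigin, read 7.10 and 6.96, below the level rule.

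The channels and enzymes next to a carrier showed few differences. MCU, the pore of the mitochondrial calcium uniporter, read 10.28 and 10.05, a difference of -0.265 just past 1.2-fold. It lay inside that limit as deposited (-0.23), after loess (-0.222) and after quantile normalization (-0.205). The voltage-dependent anion channels VDAC1, VDAC2 and VDAC3 differed by 0.095, 0.005 and 0.055. Of 20 enzymes passing the level rule, 1 was past 1.2-fold upwards and 2 downwards, near the 5.51% and 8.41% of all genes. GSR, glutathione reductase, read 10.96 and 11.42, a difference of 0.425. DCK, which phosphorylates imported deoxynucleosides, read 10.07 and 9.71, a difference of -0.395. ACSL4, an acyl-CoA synthetase that activates polyunsaturated fatty acids, read 10.29 and 10.03, a difference of -0.295. Without median centring ACSL4 lay inside 1.2-fold, at -0.26 as deposited, -0.252 after loess and -0.245 after quantile normalization. The hexokinases HK1 and HK2, which trap imported glucose, were both at -0.075, and lactate dehydrogenase A (LDHA) was at -0.065.

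The span of the gene ran with the difference only weakly among the 14 SLC-named carriers (Spearman's rho = -0.30 across genes, which share both arrays and are not independent replicates). The longest, SLC71A2, spans 86626 bases and had the lowest difference, yet SLC49A4 spans 86071 bases and was at 0.105. SLC66A3 spans 23390 bases, close to SLC25A15 (22850) and SLC67A2 (22259), which differed by 0.165 and -0.055.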

How the data were processed

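RNA of 2 PC3 cultures was measured on 1 array each. Values for 23641 probe sets were deposited on the log2 scale, as judged from their range. The submitters' processing notes name Affymetrix Expression Console 1.2. Summarisation, background correction, array scaling and genome build were not given in the sources used here. Of the probe sets, 14088 (59.6%) carry a single symbol in the platform annotation, 0 carry several and 9553 carry none. All 13864 genes matched RefSeq (GRCh38.p14), used for names, synonyms, spans and sequences. Probe sets of a gene were averaged (each of the 17 genes had 1), and arrays were centred on their gene medians.

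Members, substrate classes and partner lists were chosen with earlier results of these data known. Some families were classed, SLC2A4RG and divergent transcripts set apart from carriers, and the synonym list added, after the files were seen. Genes to name were those past 1.2-fold, the extreme and brightest members of each class, the genes next to the level rule, 25 fixed carriers (0 named among these probe sets), and partners past 1.2-fold. Others, among them the synonym carriers inside 1.2-fold, NIPAL1, VDAC1, HK1 and LDHA, were named after their values were seen. Alternatives were no centring, loess (span 0.4), quantile normalization, the brightest probe set, a level of 8.5, no level filter and a filter on the mean. The centring methods and the 1.5-fold limit were tested on simulated data whose planted differences lay well past that limit. Smaller planted differences and the 1.2-fold limit were not tested. Tools were Python 3.11.15, pandas 2.3.3 and statsmodels 0.14.6. The number of arrays limits the precision.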

Additional observations from a re-analysis of the deposited data

How the results depend on the processing

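No paired analysis was possible because each group has 1 array and no test was run, and no replicate could be left out. Under the 4 alternatives that change centring or the choice of probe set, the 29 named genes tracked moved by at most 0.06. SLC71A1 was the gene whose sign changed or went to 0. Each of the 29 has 1 probe set, so taking the brightest moved them only through the array medians, by 0.005. Leaving out centring adds the same 0.035 to each. Only loess (at most 0.043) and quantile normalization (at most 0.06) could move genes by unlike amounts. In the 4 alternatives the count of the 17 genes at least 1.2-fold higher was 2 or 3, and the count lower stayed at 0. The third gene was SLC25A21-AS1 as deposited and after loess, and SLC2A4RG after quantile normalization. SLC25A21-AS1 passed the level rule through the miR-95 array alone, so its positive difference was built in. The median of the set ran from 0.025 to 0.105 under the alternatives on centring, probe sets and level. Without a level filter, 3 of 30 genes were past 1.2-fold upwards and 1 downwards. No share of all genes without that filter is given here to weigh these counts against. The median of the genes that are not carriers was then 0.015 in place of 0.215. Adding the genes that carry an SLC synonym was an alternative chosen after seeing the data. Of 45 genes, 5 were then at least 1.2-fold higher, 3 at least 1.2-fold lower and 1 at least 1.5-fold lower, because more genes were counted. The matching shares of all genes were 5.51%, 8.41% and 0.866%. The 1 past 1.5-fold was SFXN2 at -0.585. It lay inside that limit as deposited (-0.55), after loess (-0.561), after quantile normalization (-0.56) and with the brightest probe set (-0.58). Signal over background per probe set is not known here, so the level rule is a limit on brightness and not on detection.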
